A study of Homo sapiens with 12 samples.

Results

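A set of 10 matrix metalloproteinase (MMP) genes outside the chromosome 11 cluster was examined: the gelatinases MMP2 and MMP9, membrane-type enzymes (MMP14, MMP15, MMP16, MMP17 and MMP24), and secreted enzymes (MMP11, MMP19 and MMP28). They were chosen by gene symbol from the 23368 symbols of the deposited table, and all 10 had an entry there. The set does not hold every MMP gene outside that cluster, and 14 remaining MMP genes, MMP25 among them, were read as a separate list. MDA-MB-231 cells, an established ER− basal breast cancer line, and T47D cells, an established ER+ luminal A line, both derived from pleural effusions, were embedded as single cells in synthetic poly(ethylene glycol) matrices. All matrices had the same peptide crosslinks that cells can degrade, and carried either the collagen mimic GFOGER or the laminin mimic IKVAV. RNA was taken on day 3, after the matrices had been dissolved with collagenase, and 3 gels of 1 composition were pooled for each replicate. Reads had been counted for 11 libraries: with GFOGER, 3 of MDA-MB-231 and 3 of T47D, and with IKVAV, 2 of MDA-MB-231 and 3 of T47D. Replicate 3 of the IKVAV group of MDA-MB-231 was not analysed here. Each subtype was represented by 1 line, so a difference between the lines is a difference between 2 lines. The labels do not say that replicates came from separate cultures, so the p-values measure the spread between these libraries, which may be technical.

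MMPs are zinc-dependent endopeptidases that are made as inactive proenzymes and cleave proteins of the extracellular matrix and the cell surface. The gelatinases are secreted and degrade denatured collagen and type IV collagen of basement membranes. The membrane-type MMPs are held at the cell surface, by a transmembrane segment in MMP14, MMP15, MMP16 and MMP24 and by a glycosylphosphatidylinositol anchor in MMP17, and MMP14 activates the MMP2 proenzyme in a complex with the inhibitor TIMP2.

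Between 14338238 and 18452145 reads were counted on genes per library, and 3 counts corresponded to 0.168 to 0.201 cpm, the TMM-scaled count per 1000000 reads counted. The libraries matched their labels in the cell line markers: mean VIM, a mesenchymal intermediate filament gene, was at 2322 and 1451 cpm in MDA-MB-231 cells with GFOGER and IKVAV against 4.48 and 4.29 cpm in the T47D groups, and the 8 luminal marker genes were all higher in T47D cells. The E-cadherin gene CDH1 had a mean below 5 cpm in MDA-MB-231 cells against 1026 and 1033 cpm in T47D cells, and the estrogen receptor gene ESR1 had 0.718 and 0.528 cpm against 273 and 301 cpm. The summed level of 9 fibroblast, leukocyte and endothelial markers was 366 to 479 cpm in MDA-MB-231 libraries with GFOGER and 288 and 291 cpm with IKVAV, most of it from CD68, and 2.34 to 4.05 cpm in T47D libraries. Of these 9 genes 5 were tested in MDA-MB-231 cells and 2, the fibroblast markers PDGFRB and LUM, were called lower with GFOGER. Their part in the results was not tested. DCN, PDGFRA, PTPRC and CDH5 had means below 0.3 cpm in every condition. The others were present in MDA-MB-231 cells with GFOGER and IKVAV. PECAM1 had means of 8.88 and 14.4 cpm, CD14 8.53 and 10.4, PDGFRB 4.81 and 11.6, and LUM 1.35 and 2.95. Replicate 3 of MDA-MB-231 cells with GFOGER and replicate 3 of T47D cells with IKVAV stood apart from the other replicates of their condition, with a chi-square per gene of 16.5 to 18.9 against 2.51 and 5.51 between those others. Bulk libraries do not tell a lower share of expressing cells from less RNA per cell.

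Among the 10 genes 3 patterns stood out, which do not cover them all. MMP14, the gene of the enzyme MT1-MMP, was among the most abundant transcripts of MDA-MB-231 cells and among the least abundant of the genes tested in T47D cells. The response of MDA-MB-231 cells to the mimic was split: MMP9 and, by a small amount, MMP14 were higher with GFOGER, whereas MMP15, MMP16 and MMP17 were higher with IKVAV. MMP2 was also higher with IKVAV, but it had only 2 to 16 reads per library. It passed the filter on low counts only through its IKVAV libraries, and its call was lost under several alternatives. In T47D cells none of the 6 genes tested passed the test for a response to the mimic, and MMP17 was the most abundant of the set. MMP11, MMP19 and MMP24 did not pass that test in MDA-MB-231 cells, and MMP28 was too scarce to test.

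**Figure D1:**
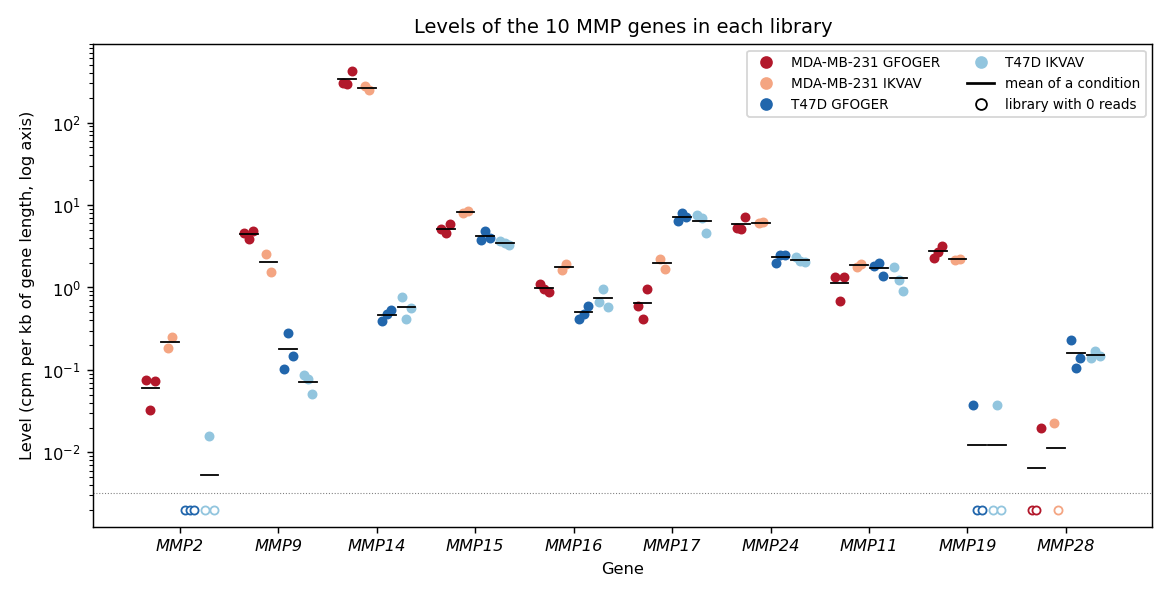
Level of each gene in each of the 11 libraries, in cpm per kilobase of gene length on a log axis, with a bar at the mean of each condition and open circles for libraries with 0 reads. MMP14 is at 248 to 419 cpm per kb in the 5 MDA-MB-231 libraries and below 1 in the 6 T47D libraries, while MMP15, MMP24 and MMP11 lie within the same decade or the next in both lines.

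Of the proximal promoters, 4 of the 10 genes had an entry in the RefSeq table used (GRCh38.p14): MMP14, MMP15, MMP24 and MMP11. The promoters of MMP2, MMP9, MMP16, MMP17, MMP19 and MMP28 were not analysed here. The 250 bases before the start are printed for 2 of them, MMP14 as the gene that differed most between the cell lines and MMP15 as a gene that differed by less than 2-fold. The windows are chr14:22836335-22836584 for MMP14 and chr16:58025504-58025753 for MMP15, both on the plus strand, and capitals mark the GC box, GGGCGG on either strand.
MMP14: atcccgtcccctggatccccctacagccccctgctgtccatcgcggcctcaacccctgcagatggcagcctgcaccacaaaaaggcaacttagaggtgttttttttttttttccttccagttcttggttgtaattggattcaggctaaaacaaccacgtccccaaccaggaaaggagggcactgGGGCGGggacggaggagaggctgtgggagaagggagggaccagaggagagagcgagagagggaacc
MMP15: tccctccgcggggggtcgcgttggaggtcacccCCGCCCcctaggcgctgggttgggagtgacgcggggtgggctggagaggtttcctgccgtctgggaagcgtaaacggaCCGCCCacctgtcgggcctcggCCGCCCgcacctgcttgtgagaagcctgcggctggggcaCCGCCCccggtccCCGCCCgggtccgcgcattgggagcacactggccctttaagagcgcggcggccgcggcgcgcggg
The MMP14 window held 1 GC box, at bases -66 to -61 from the start, and 56.8% of its bases were G or C, close to the median of 58% over 35116 promoter windows of the same length. The MMP15 window held 5 GC boxes and 74.8% G or C. MMP24 and MMP11 held 3 GC boxes each, with 77.6% and 73.2% G or C. A GC box was present in 42.6% of all windows. An AP-1 site searched as TGANTCA, present in 6.57% of all windows, and a TATA box searched as TATAAA, present in 10.7%, were found in none of the 4 windows.

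Levels were first compared between genes on a per-length scale, cpm per kilobase of gene length. In MDA-MB-231 cells with GFOGER the order was led by MMP14, at a mean of 339 ± 69.7 cpm per kb (SD, n = 3), which was 58 times the level of the next gene. MMP24, MMP15 and MMP9 followed at 5.84, 5.19 and 4.41 cpm per kb, and the libraries of neighbours in this group of 3 overlapped. MMP19 came next at 2.74 cpm per kb, then MMP11, MMP16 and MMP17 at 1.13, 0.982 and 0.653, again with overlap between neighbours. MMP2 had 0.0599 and MMP28 0.00654 cpm per kb. With IKVAV, MMP14 led MDA-MB-231 cells at 262 ± 19.4 cpm per kb (SD, n = 2), 31.8 times the next gene. MMP15 came next at 8.25 and MMP24 after it at 6.14 cpm per kb, without overlap, and MMP19, MMP9, MMP17, MMP11 and MMP16 lay together between 2.20 and 1.79 with overlapping libraries. In T47D cells the order was MMP17, MMP15, MMP24 and MMP11 with either mimic, at 7.13, 4.20, 2.31 and 1.72 cpm per kb with GFOGER and 6.35, 3.47, 2.15 and 1.29 with IKVAV. The libraries of neighbours among these 4 did not overlap, although MMP11 overlapped the next gene, MMP16, with IKVAV. MMP16 and MMP14 followed below 1 cpm per kb in both conditions and overlapped each other.

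As a share of the summed per-length level of the 10 genes, MMP14 made up 91.1% to 94.5% in the MDA-MB-231 libraries and 2.57% to 4.6% in the T47D libraries. The 5 membrane-type genes of the set together held 97.5% to 97.9% and 85.5% to 90.9%. Without MMP14, the sum of the other 9 genes was 18.4 to 24.7 cpm per kb in MDA-MB-231 libraries and 11.6 to 18.1 cpm per kb in T47D libraries. Among all genes tested, 99.4% and 99.2% had a lower level per length than MMP14 in MDA-MB-231 cells with GFOGER and IKVAV, and 6.60% and 7.63% in T47D cells.

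**Figure D2:**
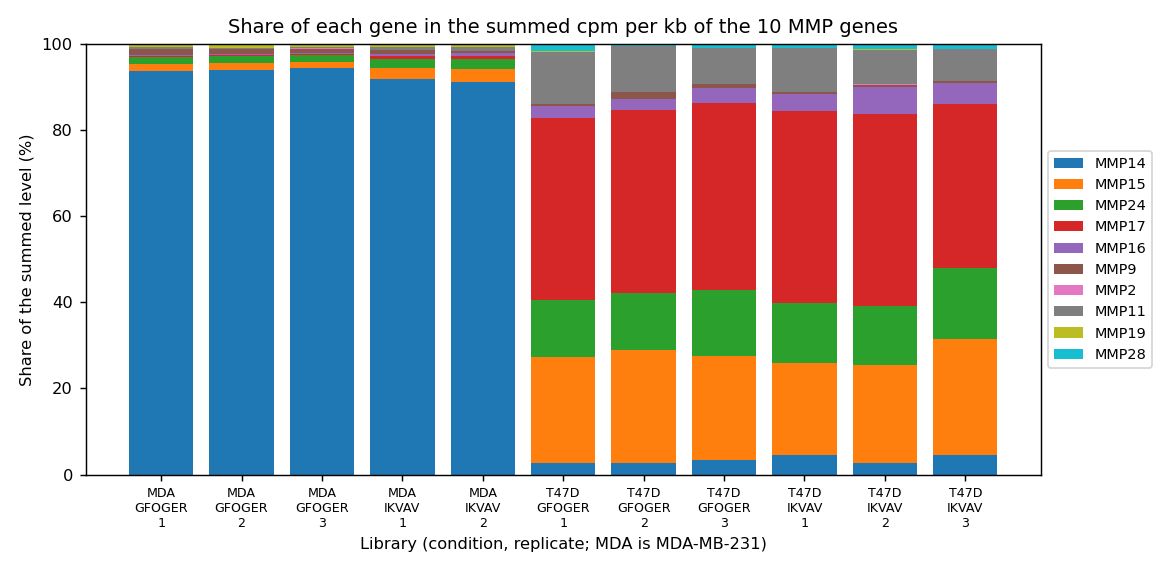
Share of each gene in the summed cpm per kb of the 10 genes, in percent, for each of the 11 libraries. MMP14 fills 91.1% to 94.5% of every MDA-MB-231 bar and 2.57% to 4.6% of every T47D bar, where MMP17, MMP15 and MMP24 take most of the sum.

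The first comparison asked how each gene responded to the collagen mimic relative to the laminin mimic within MDA-MB-231 cells. Of the 10 genes, 9 had enough counts for the test, and 3 were called with an adjusted p below 0.05 and a change over 2-fold, by edgeR's quasi-likelihood test, Benjamini-Hochberg adjusted over all genes tested. MMP9 was called upward with GFOGER and MMP2 and MMP17 downward, where 9.57% of all 14092 genes tested were called, 3.12% upward and 6.46% downward. By the adjusted p alone, 6 of the 10 passed, 2 upward and 4 downward, against 42.9% of all genes, 21.4% in each direction. The median log2 fold change of the 9 genes tested was -0.68, against 0.00 over all genes tested. Without replicate 3 of GFOGER the same 3 genes were called. The GFOGER and IKVAV libraries did not overlap for 8 of the 10 genes, all of them among the 9 tested, and this was so for 63.0% of all genes tested. MMP2 passed the filter on low counts only through its IKVAV libraries, so its place among the genes tested depended on the direction of its difference. The downward counts and the median of -0.68 include MMP2 and so depend in part on the filter.

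Of the gelatinases, MMP9 (chr20:44637547-44645200, plus strand, hg19), the gene of gelatinase B, had 10.6, 9.0 and 11.3 cpm in the 3 MDA-MB-231 libraries with GFOGER and 5.92 and 3.60 cpm in the 2 with IKVAV. All GFOGER libraries were above both IKVAV libraries. The means were 10.3 ± 1.17 (SD, n = 3) and 4.76 ± 1.64 cpm (SD, n = 2), a log2 fold change of 1.11 (SE 0.22, adjusted p = 0.000687). The span of MMP9 shares 3062 bases with the opposite-strand gene SLC12A5-AS1 in GENCODE 44 lifted to GRCh37. MMP2 (chr16:55513081-55540586, plus strand), the gene of gelatinase A, was seen in few reads: 5, 2 and 5 with GFOGER and 11 and 16 with IKVAV, or 0.286, 0.124 and 0.279 cpm against 0.708 and 0.961 cpm. The groups did not overlap, and the log2 fold change was -1.82 (SE 0.60, adjusted p = 0.0207). These 2 of the 3 calls were lost when single libraries were left out, and that of MMP2 with other methods too. Without replicate 2 of IKVAV the MMP9 change was 0.79, under 2-fold, with an adjusted p of 0.0282, the highest over its alternatives, which began at 3.77e-07. The MMP2 call was lost when GFOGER replicate 2, IKVAV replicate 1 or IKVAV replicate 2 was left out, with log2 changes of -1.55, -2.02 and -1.58, and also with DESeq2 (log2 -1.86, adjusted p = 0.0746) and without the filter on low counts (log2 -1.81, adjusted p = 0.0566). Its adjusted p ranged from 0.0188 to 0.178 over the alternatives.

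Of the transmembrane genes, MMP14 (chr14:23305793-23316803, plus strand), whose enzyme cleaves fibrillar collagen at the cell surface, had 1084, 1031 and 1482 cpm with GFOGER and 976 and 879 cpm with IKVAV in MDA-MB-231 cells. Replicate 3 of GFOGER was the highest by far, and the other GFOGER libraries lay just above the IKVAV libraries. The means of 1199 ± 247 (SD, n = 3) and 927 ± 68.5 cpm (SD, n = 2) differed by 0.36 on the log2 scale (SE 0.12, adjusted p = 0.0244), a change of 1.29-fold. Without GFOGER replicate 3 the log2 change was 0.18, and without IKVAV replicate 2 the adjusted p was 0.226, the highest of the alternatives, which began at 2.45e-06. With a term for the sets of library totals that the deposited RPKM values imply, it was 0.0719. Of the MDA-MB-231 libraries only IKVAV replicate 1 is in the low set, so that fit in effect leaves it out. The log2 change was 0.439 with the term and 0.443 without that library.

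MMP15 (chr16:58059282-58080804, plus strand), the gene of MT2-MMP, went the other way, with 22.7, 20.3 and 26.0 cpm with GFOGER and 35.6 and 37.6 cpm with IKVAV. The log2 fold change was -0.68 (SE 0.13, adjusted p = 0.000617), so the level with IKVAV was 1.6 times that with GFOGER, and no libraries overlapped. MMP16 (chr8:89049460-89339717, minus strand), the gene of MT3-MMP, had 6.93, 6.08 and 5.64 cpm with GFOGER and 10.4 and 12.3 cpm with IKVAV. Its log2 fold change of -0.88 (SE 0.18, adjusted p = 0.000843) was 1.84-fold and, like that of MMP15, under the 2-fold threshold. MMP24 (chr20:33814539-33864804, plus strand), the gene of MT5-MMP, had 22.9, 22.5 and 30.6 cpm against 26.4 and 26.8 cpm. The groups overlapped and the log2 difference was -0.08, with a 95% interval of -0.39 to 0.23 and an adjusted p of 0.702. The span of MMP24 lies within that of the opposite-strand gene MMP24OS in GENCODE 44 lifted to GRCh37, and since the strand option of the counting is not given in the sources used here, reads of the pair may not have been told apart.

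MMP17 (chr12:132312941-132336316, plus strand), the gene of the anchored enzyme MT4-MMP, had the largest response among the membrane-type genes of MDA-MB-231 cells. It had 1.43, 0.993 and 2.29 cpm with GFOGER, from 25, 16 and 41 reads, and 5.40 and 4.09 cpm with IKVAV, from 84 and 68 reads. Both IKVAV libraries were above all GFOGER libraries. The level with IKVAV was 3.00 times that with GFOGER, a log2 fold change of -1.58 (SE 0.32, adjusted p = 0.000849), and the call was kept under every alternative run, with log2 changes from -1.98 to -1.35 and adjusted p from 2.13e-07 to 0.0212.

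The secreted enzymes outside the gelatinases gave no call. MMP11 (chr22:24115036-24126503, plus strand), the gene of stromelysin-3, which is activated inside the cell by furin, had 3.04, 1.55 and 3.07 cpm with GFOGER and 4.05 and 4.39 cpm with IKVAV. The libraries did not overlap, with a log2 fold change of -0.73 (SE 0.29), but the adjusted p was 0.0548, and it lay between 0.00875 and 0.217 over the alternatives. MMP19 (chr12:56229214-56236735, minus strand), whose enzyme cleaves basement membrane proteins, had 7.45, 8.88 and 10.5 cpm with GFOGER against 7.08 and 7.21 cpm with IKVAV. All GFOGER libraries were higher, one of them only slightly, and the log2 difference of 0.31 had a 95% interval of -0.09 to 0.72 and an adjusted p of 0.202. MMP19 shares 817 bases of its span with the opposite-strand entry TMEM198B, which had 180 to 470 counts per library. MMP28 (chr17:34092876-34122640, minus strand), the gene of epilysin, had 1 read in the 3 GFOGER libraries and 1 read in the 2 IKVAV libraries, too few to test.

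**Figure D3:**
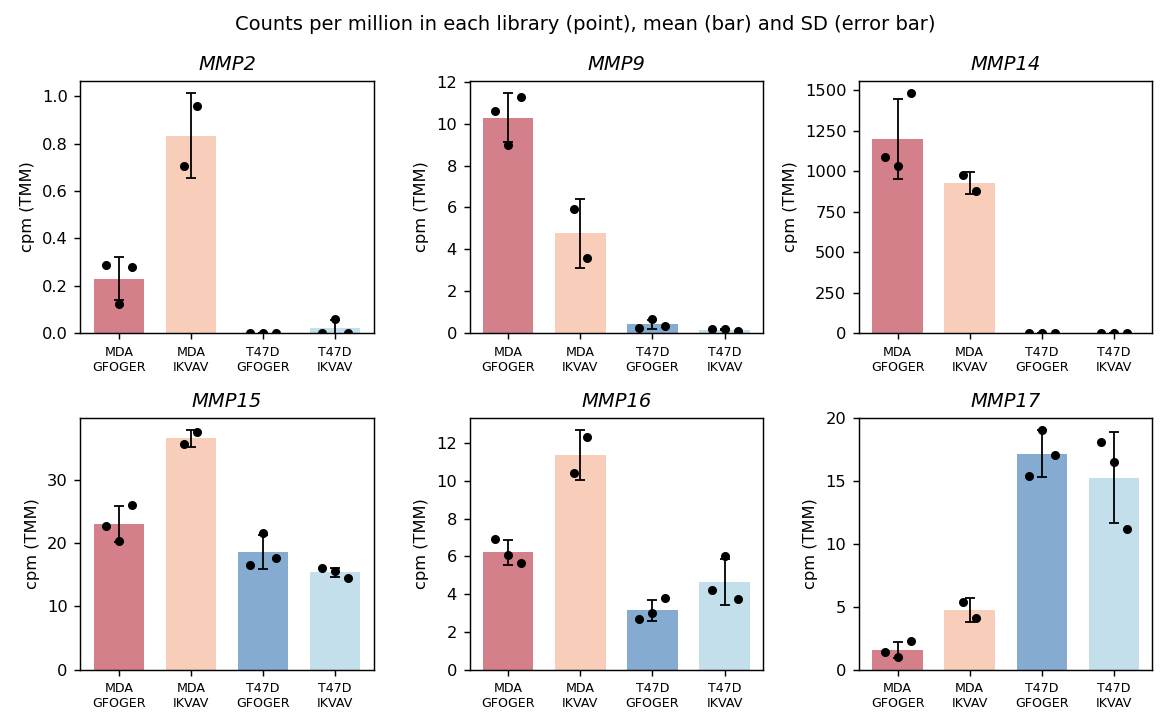
Level in each library, in TMM-scaled cpm, for the 6 genes that passed the adjusted p in MDA-MB-231 cells, with bars for the mean and error bars for the SD of each condition (n = 3, or 2 for MDA-MB-231 with IKVAV). MMP9 and MMP14 are higher with GFOGER in MDA-MB-231 cells and the other 4 are higher with IKVAV, while no gene passed the test between the mimics in T47D cells, where MMP2 has 1 read in all and MMP9 and MMP14 lie below 3 cpm.

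The same comparison in T47D cells gave 0 calls among the 10 genes, of which 6 had enough counts for the test. Over all 13642 genes tested, 0.0220% were called by edgeR's quasi-likelihood test, and 0.0440% passed the adjusted p at any fold. In this test 1 gene of the set, MMP16, had an unadjusted p below 0.05. With DESeq2 or without IKVAV replicate 3 the count for the set was also 0, although 94 genes in all were called without that library. The median log2 fold change of the 6 genes tested was 0.12, against 0.00 over all genes. The libraries of the mimics did not overlap for 2 of the 10 genes, MMP9 and MMP15. Of the 6 genes tested this was so for 1, MMP15, close to the 16.0% of all genes tested.

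MMP16 had 2.66, 3.02 and 3.77 cpm with GFOGER and 4.23, 6.04 and 3.72 cpm with IKVAV in T47D cells, with 1 IKVAV library just below the highest GFOGER library. The log2 difference of -0.58 (SE 0.24) had the same sign as in MDA-MB-231 cells, and its adjusted p was 0.385, with values from 0.0425 to 0.866 over the alternatives, the lowest of them without IKVAV replicate 3. MMP15 had 16.6, 21.7 and 17.6 cpm against 16.0, 15.6 and 14.5 cpm. All GFOGER libraries were the higher ones, by 0.26 on the log2 scale with a 95% interval of -0.03 to 0.54 and an adjusted p of 0.491. MMP17 had 15.4, 19.1 and 17.0 cpm with GFOGER and 18.1, 16.5 and 11.2 cpm with IKVAV. The groups overlapped, and the log2 difference of 0.15 had an interval of -0.22 to 0.52 (adjusted p = 0.795). MMP24 differed by 0.09 (interval -0.24 to 0.42) and MMP11 by 0.40 (interval -0.17 to 0.96), with overlapping libraries and adjusted p of 0.876 and 0.607. With a term for the sets of RPKM totals the MMP17 difference was 0.625 (adjusted p = 0.058) and the MMP11 difference 0.93 (adjusted p = 0.155). In that fit MMP16 was at -0.23 (adjusted p = 0.744). MMP14 was counted 23, 28 and 33 times with GFOGER and 40, 24 and 33 times with IKVAV, or 1.39, 1.69 and 1.89 cpm against 2.68, 1.45 and 1.98 cpm. The log2 difference was -0.31 with an interval of -0.94 to 0.33 (adjusted p = 0.748), so a change as large as that of MDA-MB-231 cells lay just outside the upper bound.

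The remaining 4 genes were too scarce in T47D cells for the filter. MMP9 had 4, 11 and 6 reads with GFOGER and 3, 3 and 2 reads with IKVAV. Without a filter its log2 fold change was 1.27 (SE 0.72, adjusted p = 0.575), so a difference of the size seen in MDA-MB-231 cells was not detectable at this depth. MMP2 had 1 read in the 6 libraries and MMP19 had 4 reads, in 2 of the libraries. MMP28 had 11, 5 and 7 reads with GFOGER and 6, 8 and 7 reads with IKVAV.

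**Figure D4:**
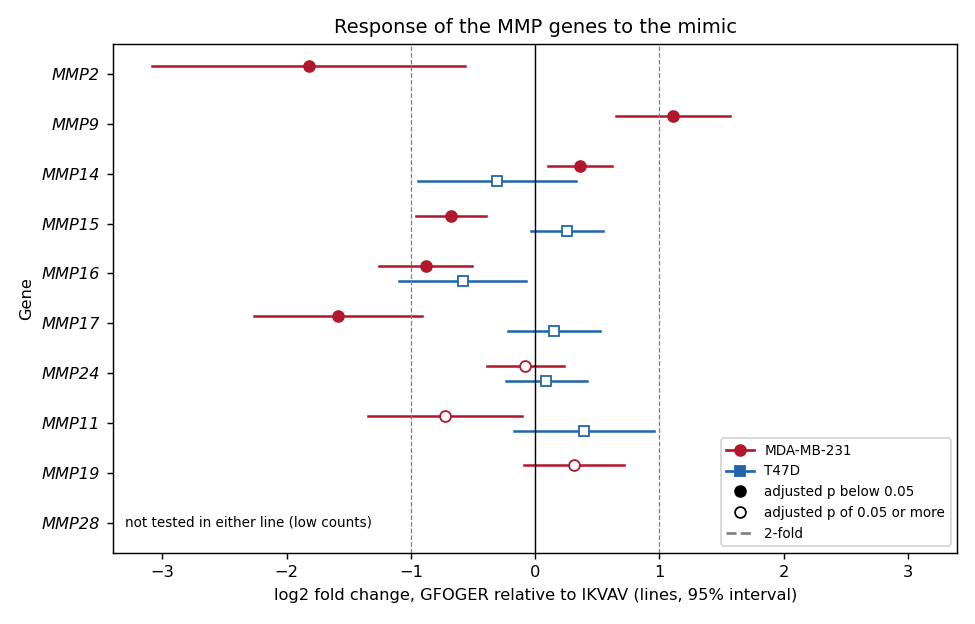
Log2 fold change of GFOGER relative to IKVAV with its 95% interval for each gene tested, circles for MDA-MB-231 cells and squares for T47D cells, filled where the adjusted p is below 0.05. In MDA-MB-231 cells 6 intervals with filled points lie off 0, 4 of them to the left, and no point of T47D cells is filled.

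The interaction of cell line and mimic tested whether these responses differed between the lines, in 1 fit of all 4 conditions. MMP17 was the only gene of the set called, 1 of 9 tested, where 6.42% of 15320 genes were called, 2.25% upward and 4.17% downward. The GFOGER to IKVAV difference was lower in MDA-MB-231 than in T47D cells by 1.72 on the log2 scale (interaction -1.72, SE 0.36, adjusted p = 0.00224). MMP15 passed the adjusted p with a smaller difference (-0.93, SE 0.19, adjusted p = 0.0021), and 21.0% of all genes did so at any fold, 10.2% downward. For MMP14 the interaction was 0.67 (SE 0.32, adjusted p = 0.148) and for MMP11 it was -1.11 (SE 0.41, adjusted p = 0.0630). For MMP16 and MMP24 it was -0.29 and -0.16 with adjusted p of 0.541 and 0.654. Over the alternatives the adjusted p of MMP17 was at most 0.0262 and that of MMP15 at most 0.0137, while that of MMP11 lay between 0.0175 and 0.160. Leaving out replicate 3 of MDA-MB-231 with GFOGER brought the calls to 3, with MMP15 at -1.04 and MMP11 at -1.28 on the log2 scale. They were 2 without replicate 1 of T47D with GFOGER, which added MMP15 at -1.02, or without replicate 1 of T47D with IKVAV, which added MMP11 at -1.40. The counts of MMP2, MMP9 and MMP19 in T47D cells were too low to give an interaction that can be read.

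The difference between the lines, averaged over the mimics, was larger in size than the MDA-MB-231 response to the mimic for 8 of the 9 genes tested, all but MMP11. Of the 9 genes tested, 7 were called, 6 higher in MDA-MB-231 cells (MMP2, MMP9, MMP14, MMP16, MMP19 and MMP24) and MMP17 higher in T47D cells, where 46.3% of 15320 genes were called, 23.7% and 22.6% in the 2 directions. MMP2 and MMP19 reached the filter's cutoff in MDA-MB-231 libraries alone, so the filter set their direction, and MMP9 reached it in 1 T47D library. At any fold 8 of the 9 passed the adjusted p, 7 of them higher in MDA-MB-231 cells, against 84.5% of all genes, 42.0% higher and 42.5% lower. The libraries of the lines did not overlap for 7 of the 10 genes (MMP2, MMP9, MMP14, MMP17, MMP19, MMP24 and MMP28). Of the 9 genes tested this was so for 6, all but MMP28 of those named, close to the 65.4% of all genes tested.

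MMP14 differed by 9.18 on the log2 scale (SE 0.14, adjusted p = 4.71e-22), or 579-fold, from 16608 to 26520 reads per MDA-MB-231 library with GFOGER and 14629 to 15165 with IKVAV against 23 to 40 reads per T47D library. MMP9 was 26.0-fold higher in MDA-MB-231 cells (log2 4.70, SE 0.25, adjusted p = 5.99e-13). For the scarcer genes a ratio of summed reads was used, with an exact Poisson interval that covers counting error only. MMP2, with 39 reads in 5 MDA-MB-231 libraries and 1 read in 6 T47D libraries, had a ratio of 46 (95% interval 7.79 to 1860). MMP19, with 690 reads against 4, had a ratio of 204 (95% interval 79.1 to 749). MMP28 was the only gene besides MMP17 with more reads in T47D cells in every library, 44 in all against 2, a ratio of 18.6 (95% interval 4.86 to 159).

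The other membrane-type genes differed by much less. MMP24 was 2.71-fold higher in MDA-MB-231 cells (log2 1.44, SE 0.11, adjusted p = 1.52e-10), MMP16 2.20-fold (log2 1.14, SE 0.15, adjusted p = 7.18e-07) and MMP15 1.73-fold (log2 0.79, SE 0.10, adjusted p = 2.02e-07), below the 2-fold threshold. With a term for the sets of RPKM totals the MMP16 difference was 0.99 on the log2 scale and was not called. The MMP15 and MMP16 libraries of the lines overlapped, and their levels in MDA-MB-231 cells with GFOGER reached down to those of T47D cells. MMP17 was 5.84-fold higher in T47D cells (log2 -2.55, SE 0.18, adjusted p = 4.20e-11), with 11.2 to 19.1 cpm against 0.993 to 5.40 cpm. MMP11 did not pass the test between the lines, with a log2 difference of -0.02, a 95% interval of -0.45 to 0.42 and an adjusted p of 0.939.

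The 3 genes whose log2 cpm followed MMP14 most closely over the 11 libraries were CD97, MSN and PODXL, each with Pearson's r = 0.999. CD97, an adhesion receptor gene, had mean levels of 321 and 246 cpm in MDA-MB-231 cells with GFOGER and IKVAV and 8.36 and 9.50 cpm in T47D cells. MSN, the gene of moesin, which links the membrane to actin, had 1327 and 918 cpm against 2.16 and 2.51 cpm. The sialomucin gene PODXL had 634 and 496 cpm against 13.3 cpm with either mimic. All 11 points fall into 2 clusters, one for each line, so these values describe the contrast between the lines and say little about the order within a line.

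Genes that act with these enzymes were read from lists of their activators, inhibitors, surface partners, trafficking machinery and substrates. Of 9 activators of MMP proenzymes, 7 were tested in MDA-MB-231 cells, and 3 were called upward and 2 downward with GFOGER, with a median log2 fold change of 0.26. Over all genes tested 3.12% were called upward and 6.46% downward, the shares against which the counts of these lists stand. MMP3, the gene of stromelysin-1, had 35.2 ± 4.62 cpm with GFOGER (SD, n = 3) and 2.13 ± 0.63 cpm with IKVAV (SD, n = 2), a rise of 4.04 on the log2 scale (SE 0.21, adjusted p = 4.06e-10). PLAU, the gene of urokinase, rose from 169 ± 14.3 to 562 ± 41.8 cpm (log2 1.72, SE 0.10, adjusted p = 1.31e-09). The proprotein convertase genes PCSK6 and PCSK5 fell, to 0.330 from 1.54 cpm (log2 -2.21, adjusted p = 0.00147) and to 0.757 from 1.63 cpm (log2 -1.11, adjusted p = 0.0424). PCSK6 reached the cutoff of the filter on low counts in its IKVAV libraries alone, so its place among the genes tested depended on the direction of its difference. FURIN, the convertase that activates MMP11 and the membrane-type enzymes, had 117 ± 20.1 and 96.6 ± 1.87 cpm and did not pass (log2 0.26, adjusted p = 0.0954).

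The 8 inhibitors and clearance genes were all tested in MDA-MB-231 cells, with 1 called upward and 3 downward with GFOGER and a median of -0.35. The tissue inhibitor gene TIMP4 rose from 1.41 to 2.89 cpm (log2 1.00, adjusted p = 0.0279), at the edge of the threshold. The plasma protease inhibitor gene A2M fell from 1.03 to 0.156 cpm (log2 -2.67, adjusted p = 0.00241) and, like PCSK6, reached the filter's cutoff with IKVAV alone. TIMP3, the gene of the matrix-bound inhibitor, fell from 1433 ± 83.4 to 606 ± 18.1 cpm (log2 -1.25, adjusted p = 3.43e-09). TIMP2, which bridges MMP14 and the MMP2 proenzyme, had 1187 ± 81.2 and 1236 ± 33.0 cpm, a log2 difference of -0.07 (adjusted p = 0.525). The ratio of MMP14 to TIMP2 per length was 0.943 to 1.20 in the MDA-MB-231 libraries with GFOGER and 0.749 to 0.800 with IKVAV, without overlap, and 0.0125 to 0.0303 in the T47D libraries. FURIN and TIMP2 fall outside the rule for named genes and were named after their values were seen.

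Of the 8 surface partners, which include the inducer BSG and integrin subunits, 0 were called between the mimics in MDA-MB-231 cells by edgeR's quasi-likelihood test or by DESeq2. At smaller folds 5 passed the adjusted p, 2 upward and 3 downward, and the same number had an unadjusted p below 0.05, against 42.9% and 50.2% of all genes tested. Of 10 genes for MT1-MMP trafficking and invadopodia, 9 were tested and 1 was called: SH3PXD2B, the gene of the invadopodia scaffold TKS4, fell from 64.0 ± 0.859 to 22.0 ± 2.31 cpm with GFOGER (log2 -1.55, SE 0.12, adjusted p = 4.71e-08). Of 12 matrix substrates, 10 were tested, with 2 called upward, 2 downward and a median of 0.21. LAMB3, the gene of a laminin chain of basement membranes, rose from 361 to 762 cpm (log2 1.07, adjusted p = 1.58e-07). Fibronectin, FN1, fell from 6193 ± 91.5 to 759 ± 15.9 cpm (log2 -3.04, adjusted p = 1.52e-14), and the type I collagen chain COL1A2 fell from 4.96 to 2.29 cpm (log2 -1.12, adjusted p = 0.00205).

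Of the 14 remaining MMP genes, 4 had enough counts in MDA-MB-231 cells. MMP1, the gene of interstitial collagenase, rose from 688 ± 47 to 3767 ± 430.4 cpm with GFOGER (log2 2.44, adjusted p = 2.27e-11), and MMP3 rose as given above. MMP13, the gene of collagenase-3, fell from 2.1 to 0.762 cpm (log2 -1.46, adjusted p = 0.00775). In T47D cells, 33 genes of these 6 lists were tested, and 0 were called by edgeR's quasi-likelihood test or by DESeq2, with 5 at an unadjusted p below 0.05, where 11.2% of all genes tested had one and 0.0586% were called by DESeq2. In MDA-MB-231 cells, 16 of 45 genes of the lists tested were called by edgeR's quasi-likelihood test and 15 by DESeq2, against 9.57% and 8.69% of all genes tested. The lists were chosen with earlier results of these data known, so these shares are no test of the lists. Among the genes called, PCSK6 and A2M had reached the filter's cutoff with IKVAV alone. Between the lines, all 8 inhibitors and clearance genes were called higher in MDA-MB-231 cells, as were 6 of the 8 surface partners and 8 of the 10 substrates tested, where 23.7% of all genes tested were called in that direction. Of these, 3 inhibitors (TIMP4, RECK and A2M), 1 surface partner (ITGB3) and 3 substrates (COL1A2, COL4A1 and COL4A2) reached the filter's cutoff in MDA-MB-231 libraries alone, so that their direction was set by the filter. Those not named before were named here after their values were seen.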

How the data were processed

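RNA libraries were prepared from poly(A) RNA with a kit that keeps the strand, and per the study's methods and the submitters' processing notes the authors trimmed reads with Trim Galore 0.4.4, aligned them to hg19 with TopHat2 2.1.0 and counted them on genes with HTSeq 0.6.1p1. The gene annotation and the strand option are not given in the sources used here. The deposited table holds read counts per gene, which are not normalized, and RPKM values by the authors, with a gene length in bases and positions. Only the counts were tested. The RPKM values were used for the library totals they imply, 5191201 to 5774966 reads in 5 libraries and 19898878 to 22840524 in 6, and these 2 sets were a term in 1 alternative. The low set held all T47D libraries with GFOGER, replicate 3 of T47D with IKVAV and replicate 1 of MDA-MB-231 with IKVAV. The sets thus fall unevenly over the mimics within each line. With the term, the comparison of the mimics rested on 1 IKVAV library in each line, replicate 2 in MDA-MB-231 cells and replicate 3 in T47D cells. The reason for them is not given, and an effect tied to them cannot be fully told apart from that of the mimic. Of 24656 entries, 1288 repeat a symbol, and the entry with the most reads was kept.

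Counts were normalized by TMM and filtered with filterByExpr at its defaults in edgeR 4.0.16 (R 4.3.3, limma 3.58.1). The mimics were compared in a separate fit for each cell line, and a fit of all 4 conditions gave the cell line difference and the interaction. Adjusted p-values are from edgeR's quasi-likelihood test, Benjamini-Hochberg adjusted over all genes tested, and a call needs an adjusted p below 0.05 and a change over 2-fold. The coefficient of variation was 0.0933 to 0.0975. DESeq2 1.42.0, other normalizations, other filters, a replicate block, 1 fit of all conditions and leaving out each library were alternatives.

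The genes, lists and tests were chosen with earlier results of these data known. All 10 MMP genes were named in every comparison, from each list the 2 largest increases and decreases among genes called in MDA-MB-231 cells, and for MMP14 the 3 genes with the highest correlation over libraries of log2 cpm with a prior count of 2. Replicate numbers gave no sign of pairing the libraries and were not used as pairs in the main fits. The values of 1 gene of the substrate list are not reported here.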

Additional observations from a re-analysis of the deposited data

Results flagged for a closer look

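The response to the mimic differed between the cell lines for 2 of the 10 genes, of 9 tested, by the adjusted p of the interaction term in edgeR's quasi-likelihood test. This was close to the share over all genes tested, 21.0%. Of the 2 genes only MMP17 had a difference over 2-fold. For MMP17 the GFOGER to IKVAV difference was lower in MDA-MB-231 cells by 1.722 on the log2 scale (-1.722, SE 0.36, adjusted p = 0.00224): the level was lower with GFOGER in 3 of 3 MDA-MB-231 libraries than in both IKVAV libraries, while the T47D libraries of the mimics overlapped. For MMP15 the interaction was -0.9258 (SE 0.192, adjusted p = 0.0021), with all 3 GFOGER libraries below the IKVAV libraries in MDA-MB-231 cells and all 3 above them in T47D cells. In T47D cells alone MMP15 did not pass the same test (adjusted p = 0.491).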

How the results depend on the processing

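Of the alternative values of single genes, 440 kept their direction and their side of the threshold, 12 changed direction, 8 passed the threshold anew and 7 no longer passed it. The threshold here is the joint one of adjusted p and 2-fold, so a change in the adjusted p of a gene under 2-fold is not seen. Genes with 3 reads or fewer in a group of the comparison were left out. Some alternatives are nearly the same fit, so these values are not independent. In MDA-MB-231 cells the count of the 10 MMP genes called was 3, 6 by the adjusted p at any fold, 2 with DESeq2, without a filter or with at least 10 counts, and 1 to 3 with 1 library left out, the 1 without IKVAV replicate 2. In T47D cells it was 0 under every alternative run. Between the lines it was 7, 6 with the sets of RPKM totals as a term, where MMP16 was at 0.9911, 8 without a filter, and 4 where at least 10 counts were required in every library, which removed 3 of the called genes from the test. For the interaction it was 1, 2 without a filter, with at least 10 counts or at any fold, 3 with the sets of RPKM totals as a term, and 1 to 3 with 1 library left out.

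All genes called in T47D cells were 3, but 20 without a filter, 8 with DESeq2, 5 with 1 fit of all conditions, 49 with the sets of RPKM totals, and 0 to 94 with 1 library left out, the 94 without IKVAV replicate 3. Between the lines 7092 genes were called, and 4091 with at least 10 counts. Differences near 0 changed sign: MMP24 in MDA-MB-231 cells was 0.0002988 at the highest (range -0.24 to 0.0002988) and MMP17 in T47D cells -0.045 at the lowest (-0.045 to 0.29) with 1 library left out. MMP11 between the lines was 0.0055 with at least 10 counts and -0.12 to 0.13 with 1 library left out, and the MMP9 interaction was 0.53 with the sets of RPKM totals and -0.48 to 0.34 with 1 library left out. The cause was not tested.

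Same-numbered libraries had deviations correlated between -0.0604 and 0.0162 across genes, so the numbers do not pair them. With the replicate block, 5 genes were called in T47D cells and 1445 in MDA-MB-231 cells, against 3 and 1349, and the MMP14 change in MDA-MB-231 cells was 0.18 against 0.36, in a fit where replicate 3 of GFOGER has no partner. The depth limits MMP2, MMP19 and MMP28, and MMP9 in T47D cells.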
